A study of Mus musculus with 4 samples.

Results

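The MHC class II genes described here are 8 of the 32285 genes in the deposited matrices, taken by symbol from a list of the chains of the class II molecules, the factors that load them and their transcriptional coactivator. They are H2-Aa and H2-Ab1, which encode the α and β chains of I-A, and H2-Eb1, the β chain of I-E. H2-DMa and H2-DMb1 encode the peptide exchange factor H2-DM, H2-Oa encodes the α chain of its inhibitor H2-DO, Cd74 encodes the invariant chain, and Ciita encodes the coactivator. Unique molecular identifiers (UMIs, each standing for 1 captured RNA molecule) of these genes were followed in 4 single-cell RNA libraries of the mouse digit, by library and by classes of cells defined from markers.

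Every animal was a wild-type FVB/NJ mouse of 8 weeks, and each library was a pool that the labels describe as male and female. The 4 groups were the unamputated second phalanx (P2) and the P2 digit at 12, 17 and 28 days post-amputation (dpa) at the mid-digit level, which heals with fibrosis and not by regeneration. The labels name no treatment other than the amputation. Digits were hand-dissected, dissociated with the enzymes trypsin and collagenase I and freed of red cells, and the live fraction, negative for propidium iodide, was sorted before 10x capture with 3′ v3 chemistry. Each group held 1 library, so no difference between groups has a replicate check and none was tested. Intervals are exact and at 95%, and they cover counting error only.

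Class II molecules carry peptides from proteins broken down in endosomes to the cell surface, where CD4+ T cells read them. The invariant chain holds the newly made α and β chains together and blocks the groove until proteases such as cathepsin S trim it, and H2-DM then exchanges the last fragment for a peptide while H2-DO restrains that exchange. The genes are switched on together by CIITA, which does not bind DNA itself but joins RFX, CREB and NF-Y factors on a shared promoter module. Dendritic cells and B cells express the genes constitutively, and macrophages and many other cells gain them after exposure to interferon-γ. In skin and connective tissue the class II genes are best known as the mark of dendritic cells and of some tissue macrophages. FVB mice carry the H2q haplotype, in which the α chain of I-E is not made.

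The libraries held 8813 to 16045 barcodes, of which 6498 to 10408 were kept as cells once 500 genes, 1000 UMIs and at most 10% mitochondrial UMIs were required and doublets were removed. Median depth was 11640, 9532.5, 8488 and 6653 UMIs per cell in the unamputated, 12, 17 and 28 dpa libraries, and libraries are named in this order throughout. Between 19 and 87 barcodes were shared by any 2 libraries. The pooled-sex label did not hold in the counts: 4 Y-linked genes stood at 350, 0.229, 259 and 244 CPM (counts of a gene per 1000000 UMIs), and Xist at 0.126, 458, 0.154 and 0.0764 CPM. In the 12 dpa library sex and time therefore cannot be told apart. Immune-like cells made up 36.0%, 27.5%, 29.3% and 24.9% of cells. Clusters were named after markers, so every class name stands for cells that look like that class, and 5 immune clusters stayed unnamed.

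The 6 members of the H2 complex lie within 224 kb of chromosome 17, from 34092340 to 34316674 (GRCm38). In gene order they are H2-Oa (chr17:34092340-34095234), H2-DMa (chr17:34119541-34139101), H2-DMb1 (chr17:34153072-34160230), H2-Ab1 (chr17:34257689-34269419), H2-Aa (chr17:34282744-34287823) and H2-Eb1 (chr17:34305867-34316674). H2-Aa is on the minus strand and the others are on the plus strand.

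The promoters of 5 members were in the RefSeq table used (GRCm38.p6, 250 bases before to 50 after the start), and 4 of these 5 held the pair of short motifs that the class II promoter module is known for. The sequences are shown because the genes share this module and, as described further on, most of their UMIs were in immune-like cells. The reference is the C57BL/6J genome and not FVB/NJ. Each stretch runs 5′ to 3′ on the strand of its gene, with GNAAC (the start of the X box, to which RFX binds) and TGATTGG (the Y box, whose reverse complement holds the CCAAT to which NF-Y binds) in capitals.
H2-Aa: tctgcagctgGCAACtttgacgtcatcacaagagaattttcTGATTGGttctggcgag
H2-Eb1: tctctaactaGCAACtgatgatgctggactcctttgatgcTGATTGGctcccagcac
H2-DMb1: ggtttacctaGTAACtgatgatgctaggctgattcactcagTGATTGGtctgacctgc
H2-Oa: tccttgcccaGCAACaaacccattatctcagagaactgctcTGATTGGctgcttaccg

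These stretches lie at chr17:34287857-34287914 for H2-Aa on the minus strand, and on the plus strand at chr17:34305766-34305822 for H2-Eb1, chr17:34153087-34153144 for H2-DMb1 and chr17:34092293-34092350 for H2-Oa. The 2 motifs start 31 bases apart in H2-Aa, H2-DMb1 and H2-Oa and 30 apart in H2-Eb1. TGATTGG begins 50, 61, 63 and 45 bases before the RefSeq start of H2-Aa, H2-Eb1, H2-DMb1 and H2-Oa. The pair, searched on both strands with starts 20 to 45 bases apart, was in 235 of 32851 promoters (0.715%), and TGATTGG alone in 2568 (7.82%). It was in neither of the 2 promoters listed for H2-DMa. The motifs were chosen after the promoters had been seen, and a match is only a description of the letters.

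Partners of the members outside the list held the pair as well. H2-Ob, the β chain of H2-DO, and H2-Eb2, a relative of H2-Eb1, had it with starts 28 and 30 bases apart, and H2-DMb2, a near-identical copy of H2-DMb1, had TGATTGG only. Their stretches are shown because the motifs stand in the same order, in H2-Eb2 as far apart as in H2-Eb1 and in H2-Ob closer together (chr17:34238808-34238862 and chr17:34325533-34325589, both on the plus strand).
H2-Ob: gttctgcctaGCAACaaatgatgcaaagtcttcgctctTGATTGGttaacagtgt
H2-Eb2: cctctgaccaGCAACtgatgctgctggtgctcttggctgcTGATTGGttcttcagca

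Class II transcripts lay almost entirely in immune-like cells. Of the UMIs of the 8 members in cells, 99.1%, 98.4%, 98.2% and 97.0% were in immune-like cells of the unamputated, 12, 17 and 28 dpa libraries. Dendritic-like cells, the class known for antigen presentation, were 2.18%, 1.89%, 1.30% and 0.751% of cells and held 42.0%, 35.0%, 33.3% and 44.9% of member UMIs. Macrophage-like cells were 14.99%, 16.2%, 14.9% and 6.55% of cells and held 45.4%, 57.2%, 50.1% and 28.8%. These 2 classes together thus carried most class II RNA in each library, and at 28 dpa the larger part was in the rarer class. Over all cells the 8 members summed to 1750, 1598, 1346 and 569 CPM, so the 28 dpa library was the lowest of the 4. That sum joins the number of class II cells with the RNA of each, and those parts are taken up class by class below.

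Summed over the 8 members, dendritic-like cells were the highest of the named classes of at least 50 cells in each library, and B-like cells came next where they were found. Dendritic-like cells were at 38806, 40415, 39783 and 38207 CPM. B-like cells were at 11352, 12016 and 13527 CPM in the unamputated, 17 and 28 dpa libraries. Macrophage-like cells were at 6417, 7500, 4693 and 3060 CPM. Monocyte-like cells were at 2204 CPM in the unamputated library and at 5921 at 17 dpa, above macrophage-like cells there. Without the 5 cells with most member UMIs in each class they were at 3584 CPM at 17 dpa, below macrophage-like cells at 4453, so that order rests on 5 of 70 cells. T or NK-like cells, at 113, 455, 135 and 583 CPM, and neutrophil-like cells, at 51.4, 171, 145 and 126 CPM, were far lower. The neutrophil-like value at 17 dpa was 59.3 CPM without the top 5 cells, 1 of which held 96 of 260 member UMIs. The 12 dpa library held 0 B-like cells of 6498, which allows a share of up to 0.0462%, and the B cell genes Cd79a and Pax5 were at 0.242 and 0.0538 CPM over all its cells, against 6.70 and 4.82 CPM in the unamputated library. Other B cell genes differed less, with Cd79b at 2.10 against 4.87 CPM and Cd22 at 1.24 against 2.19 CPM, and naming each cell alone found 2 B-like cells at 12 dpa. The 12 and 28 dpa libraries held only 7 and 33 monocyte-like cells and are not compared for that class.

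**Figure D1:**
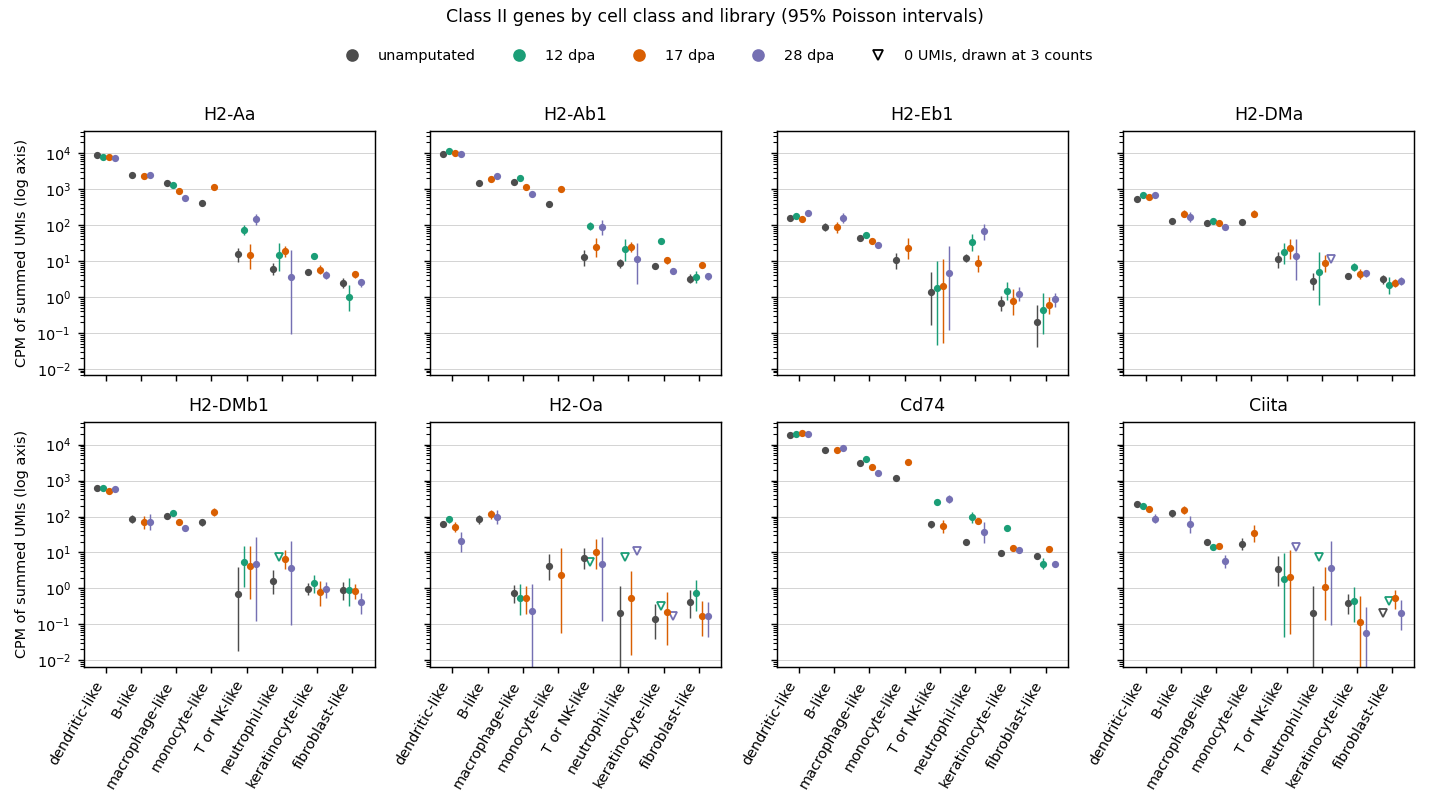
Level of each of the 8 members (CPM, log axis, 1 panel per gene) in 6 immune and 2 non-immune classes, 1 point per library of at least 50 cells with its exact 95% Poisson interval, and an open triangle drawn at 3 counts where a library had 0 UMIs. The dendritic-like points of H2-Aa, H2-Ab1 and Cd74 lie close together across libraries, while the macrophage-like points of these genes are lowest at 28 dpa.

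Dendritic-like cells kept the same total class II level in all 4 libraries to within a few percent. Relative to unamputated tissue the 8 members summed gave log2 ratios of 0.06, 0.04 and -0.02 at 12, 17 and 28 dpa (pseudocount 1 CPM), with the 28 dpa interval from -0.04 to -0.00064. Without doublet removal the 28 dpa ratio was -0.43. The 227, 123, 103 and 76 cells of this class were a single cluster led by H2-Aa, H2-Ab1, Cd74 and Cd209a, although class II genes took no part in the clustering. The median cell had 397, 403, 404 and 410 member UMIs per 10000 UMIs. The 10th percentile varied more, at 194, 148, 216.97 and 130 per 10000, and was lowest at 28 dpa.

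The single chains varied more than their sum. H2-Aa, the I-A α chain, was at 9222, 7642, 7823 and 7444 CPM in dendritic-like cells, highest in the unamputated library. Its partner H2-Ab1 was at 9649, 11267, 9944 and 9499 CPM, highest at 12 dpa. H2-Eb1 was at 153, 184, 152 and 223 CPM, and its highest value was the 28 dpa one. The order of libraries thus differed between the 2 chains of I-A, as the chain ratios further on show. Cd74, the invariant chain, stood at 18362, 19758, 20518 and 19677 CPM, lowest in unamputated tissue by a small margin.

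The peptide exchange genes did not follow a single order either. H2-DMa was at 529, 684, 609 and 672 CPM and H2-DMb1 at 606, 603, 522 and 584 CPM. H2-Oa, the H2-DO chain, was at 60.1, 84.6, 51.3 and 20.9 CPM, from 162, 87, 45 and 11 UMIs. Ciita, the coactivator on which the other members depend in textbook accounts, was at 225, 194, 164 and 87.5 CPM, from 607, 199, 144 and 46 UMIs. H2-Oa and Ciita were therefore lowest at 28 dpa, where the summed level was close to that of unamputated tissue.

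All 8 members reached 20 CPM in dendritic-like cells, the minimum for counting a gene. At 12 dpa 0 of 8 were at least 2-fold higher or lower, where 1.5% of all genes tested were higher and 8.21% lower. At 17 dpa it was again 0 of 8, beside 1.72% of all genes higher and 3.51% lower. At 28 dpa 0 were higher and 2 were lower, beside 3.17% and 10.8% of all genes. The 2 were Ciita, at a log2 ratio of -1.35 (interval -1.83 to -0.93), and H2-Oa, at -1.48 (-2.55 to -0.64), with few UMIs behind each at 28 dpa. Member medians were 0.16, -0.12 and -0.04 on the log2 scale, against -0.27, -0.13 and -0.22 for all genes. The 12 markers of dendritic cells summed to 1702, 1485, 1404 and 1062 CPM, lower in each later library, with Cd209a going from 376 to 204 CPM and Clec10a from 380.4 to 143 CPM between unamputated tissue and 28 dpa. Not all of them followed the sum: Zbtb46 was at 108, 66.1, 122 and 120 CPM and Xcr1 at 21.5, 20.4, 50.2 and 49.5 CPM. The part of these markers in the member differences was not tested.

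Macrophage-like cells had their highest summed level at 12 dpa and their lowest at 28 dpa. The 8 members gave a log2 ratio to unamputated tissue of 0.22 at 12 dpa, with an interval of 0.21 to 0.24. At 17 dpa the ratio was -0.45 (-0.47 to -0.44), and at 28 dpa it was -1.07 (-1.09 to -1.04), a 2.10-fold lower level. A stricter cell filter gave -2.64 at 28 dpa and naming each cell alone gave -2.49. Levels came from 1560, 1050, 1178 and 663 cells. H2-Aa was at 1475, 1276, 911 and 587 CPM, lower in each later library. H2-Ab1 was at 1549, 1994, 1175 and 729.9 CPM and Cd74 at 3110, 3906, 2368 and 1574.5 CPM, both highest at 12 dpa and lowest at 28 dpa.

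The remaining members followed with smaller or less certain differences. H2-DMb1 was at 106, 124, 71.5 and 47.1 CPM. H2-DMa was at 114, 133, 115 and 86.3 CPM, and H2-Eb1 at 42.7, 52.7, 36.4 and 28.5 CPM. All 3 genes thus had their lowest value at 28 dpa. Ciita was at 19.8, 13.8, 15.3 and 5.71 CPM, from 349, 125, 172 and 24 UMIs, under the minimum of 20 CPM. H2-Oa gave only 13, 5, 6 and 1 UMIs in macrophage-like cells, so its level there was at or near the limit of detection.

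At 28 dpa 3 of the 6 members that reached the minimum were at least 2-fold lower, beside 3.22% of all genes lower and 3.75% higher. They were H2-Aa at -1.33 (-1.39 to -1.27), H2-DMb1 at -1.16 (-1.39 to -0.96) and H2-Ab1 at -1.08 (-1.14 to -1.03), and Cd74 was just inside the limit at -0.98. At 12 dpa 0 of 6 passed in either direction, beside 0.534% of all genes higher and 1.1% lower. The same count of 0 of 6 was found at 17 dpa, beside 1.68% higher and 1.04% lower. Medians over the 7 members with at least 5 CPM in either library, Ciita among them, were 0.23, -0.39 and -1.08, against -0.27, -0.02 and -0.07 over all genes at the minimum of 20 CPM.

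The macrophage-like class was made of different clusters at different times. Cluster 1 (leading genes Rgs1, Slc16a10 and Tnip3) and cluster 2 (Ms4a7, Apoe and C1qb) together held 63.1%, 55.7%, 45.3% and 19.9% of macrophage-like cells. Cluster 4 (Fxyd2, Ms4a7, Clec5a and Ccr2) and cluster 6 (F13a1, Ccl24, Mrc1 and Cd163) together held 20.4%, 22.8%, 40.2% and 66.5%. Each cluster's CPM was then weighted by its share of unamputated UMIs, over the clusters with at least 10 cells on both sides. With this 1 common mix the log2 ratio was 0.29, -0.17 and 0.16, so that the 28 dpa difference of -1.07 changed sign. At 28 dpa clusters 4 and 6 were themselves lower than in unamputated tissue, and cluster 1, of 66 cells, was higher. Without cluster 4 the 28 dpa ratio of the class was -0.80, under 2-fold. The difference of the whole class therefore did not hold for each cluster in it, and the part of the mix was not tested.

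Cluster by cluster the 8 members did different things. Cluster 1 was at 9413, 11260, 8479 and 14376 CPM, highest at 28 dpa, where it had 66 cells. The 12 dendritic markers summed to 166, 183, 149 and 230 CPM in cluster 1, also highest at 28 dpa, and their part in its level was not tested. Cluster 2 was at 3740, 7264, 4464 and 3691.5 CPM, highest at 12 dpa, and cluster 8 (Apoe, Gpnmb) was at 2109, 2182, 2610 and 3646 CPM, the last from 28 cells. Cluster 6 was at 2706, 2487 and 1485 CPM in the unamputated, 17 and 28 dpa libraries. Cluster 4 was lower in each later library, at 11181, 8946, 6545 and 2455 CPM. It was the highest of the 5 clusters in unamputated tissue and the second lowest of the 4 that had at least 50 cells at 28 dpa. Cluster 14, led by the cell cycle genes Top2a, Mki67 and Cdk1, had 46, 24, 79 and 48 cells and was at 2000 CPM in unamputated tissue, 4895 at 12 dpa, 2242 at 17 dpa and 74.2 at 28 dpa, the last from 44 UMIs. Its median cell had 1.39, 1.94, 1.17 and 0 member UMIs per 10000, so its sums rest on a minority of its cells. Cluster 19, also named macrophage-like, had at most 14 cells in any library.

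**Figure D2:**
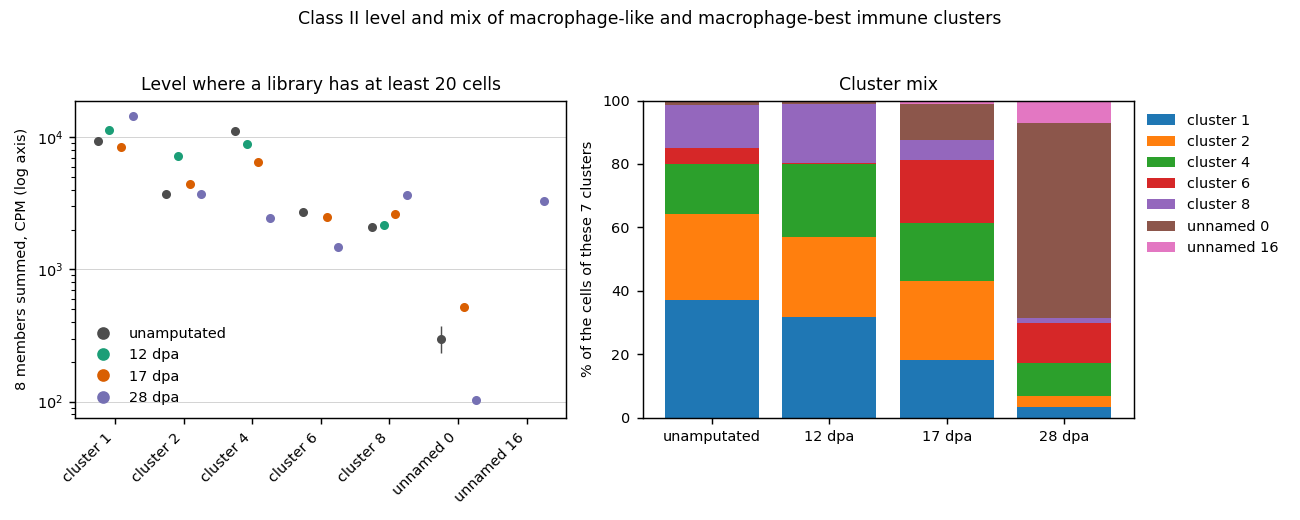
Left, summed level of the 8 members (CPM, log axis) in 5 macrophage-like clusters and the unnamed clusters 0 and 16, 1 point per library of at least 20 cells with its exact 95% Poisson interval; right, stacked bars of the share of each cluster among the cells of these 7 clusters. Cluster 4 goes from 11181 CPM in unamputated tissue to 2455 at 28 dpa, cluster 1 reaches 14376 CPM at 28 dpa, and unnamed cluster 0 takes the largest share of the 28 dpa bar.

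In cluster 4 the 7 members that reached the minimum were at least 2-fold lower at 28 dpa, beside 11.8% of all genes lower and 3.65% higher in the same cluster. Of the 7, Ciita reached the minimum only through the unamputated library, where it was high, and the other 6 reached it in both libraries. H2-Aa was at 2585, 1409, 1198.5 and 356 CPM, and Cd74 at 5235, 4755.5, 3312 and 1275 CPM. Their 28 dpa levels were 7.24-fold and 4.10-fold lower than in unamputated tissue. Ciita was at 47.9, 18.5, 20.1 and 6.204 CPM, from 111, 33, 39 and 7 UMIs, and 6.79-fold lower at 28 dpa, where its level had an interval of 2.49 to 12.8 CPM. H2-Ab1, H2-DMb1, H2-Eb1 and H2-DMa were 4.43-fold, 3.18-fold, 2.92-fold and 2.09-fold lower. The median of the 7 was -2.04 on the log2 scale, against -0.21 for all genes. At 12 dpa 1 of 7 was lower and 0 higher, beside 11.8% and 0.759% of all genes. The 1 was Ciita, again under the minimum in the later library. At 17 dpa 2 of 7 were lower and 0 higher, beside 4.48% and 1.4%.

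Other macrophage-like clusters had few members past 2-fold. Cluster 2 at 12 dpa had 2 of 6 higher and 0 lower, beside 0.982% and 3.44% of all genes, and a median of 0.97 over the 7 members with at least 5 CPM. Cluster 6 at 28 dpa had 2 of 6 lower and 0 higher, beside 3.22% and 3.33%, and a median of -0.99, again over 7. The 2 were H2-Ab1 and H2-DMb1, and H2-DMb1, at 48.8 and 17.3 CPM, reached the minimum only through the unamputated library, where it was high. Cluster 1 at 28 dpa had 1 of 7 higher and 0 lower, beside 2.53% and 7.1%, and a median of 0.51 over its 7 counted members. Whether the clusters differ from each other in their response could not be tested with 1 library per group.

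Markers of other classes give a measure of what else cluster 4 could hold. The 12 dendritic markers summed to 188, 151, 154 and 124 CPM there, against 1062 to 1702 CPM in dendritic-like cells, and Clec9a and Xcr1, which define a dendritic subset, were at 0 UMIs in cluster 4 in all 4 libraries. Flt3, the receptor for a growth factor of dendritic cells, was not at 0: it was at 19.4, 7.85, 15.5 and 8.86 CPM there, from 45, 14, 30 and 10 UMIs, against 128 to 202 CPM in dendritic-like cells. Its unamputated value was the highest of the 5 clusters, as was that of the members. Napsa made up 132, 120, 109 and 93.1 CPM of this sum. The 10 macrophage markers summed to 4326, 4947, 6068 and 5877 CPM in the same cells. The 8 monocyte markers summed to 623, 334, 363 and 194 CPM, so they were lowest in the library in which the members were lowest, and their part in the result was not tested.

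An unnamed cluster bears on the macrophage result. Cluster 0 (Fxyd2, Lyve1, Pf4, Cd36 and Folr2) matched macrophage markers best, but it stayed unnamed because its leading genes included Ltc4s and F13a1, fixed as markers of other classes. It held 21, 7, 140 and 1178 cells, 11.6% of the 28 dpa library, and the 8 members summed to 297, 518 and 103 CPM in the unamputated, 17 and 28 dpa libraries. Cluster 16 (Lyz1, Tnfsf9), unnamed on the same ground, held 134 cells at 28 dpa, at 3317 CPM. Counting both as macrophage-like (an alternative added once the clusters were known) gave log2 ratios of 0.24, -0.59 and -2.41. At 28 dpa 6 of 6 members were at least 2-fold lower, beside 5.54% of all genes lower and 3.44% higher. H2-Eb1, at 42.1 and 10.9 CPM, was among the 6 only through the unamputated library, where it was high. The median of the 7 members with at least 5 CPM was -2.30. At 28 dpa the class as named thus leaves out a large population in which class II UMIs were scarce.

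Levels per cell showed a wide range among macrophage-like cells that the sums hide. The median cell had 9.75, 11.3, 4.11 and 1.41 member UMIs per 10000 UMIs, while the 90th percentile was 265, 308, 235 and 116. In cluster 4 the medians were 42.5, 24.4, 9.80 and 1.16, and in cluster 1 they were 40.3, 42.5, 31.4 and 105. In these data a typical cell of cluster 4 at 28 dpa therefore had few class II UMIs, while a typical cell of cluster 1 had many.

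**Figure D3:**
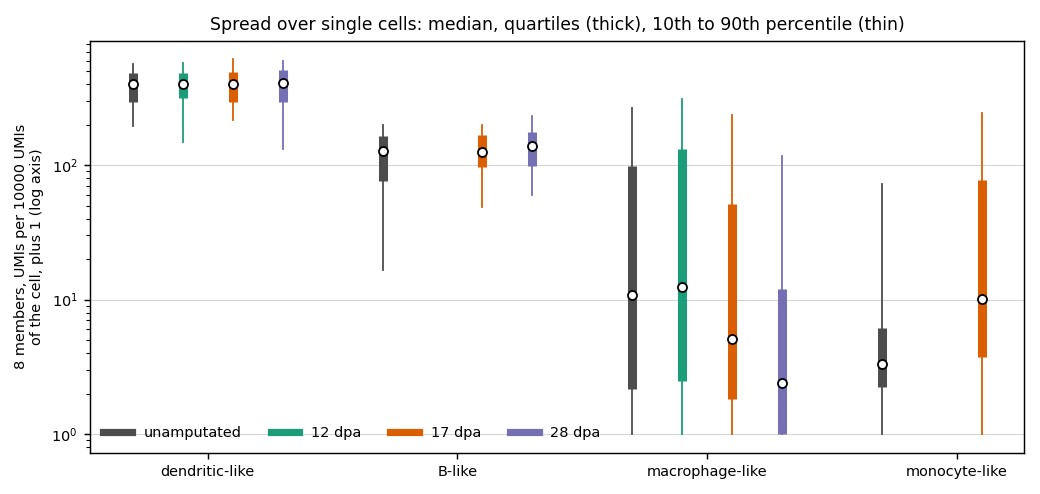
Member UMIs per 10000 UMIs of each cell, plus 1 (log axis), by class and library of at least 50 cells, with the median (point), the quartiles (thick line) and the 10th to 90th percentiles (thin line). Dendritic-like medians stay between 397 and 410, and macrophage-like medians run from 11.3 at 12 dpa to 1.41 at 28 dpa, before 1 is added.

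Shares of cells with a member UMI were read after each cell had been thinned to 2000 UMIs. In macrophage-like cells the share was 65.0%, 67.1%, 57.8% and 40.7%, with an interval of 36.8% to 44.7% at 28 dpa. Thinning left out 22, 18, 14 and 34 shallower cells, and the unthinned shares were 84.4%, 85.1%, 78.6% and 56.3%. Keratinocyte-like cells, which stand for cells that should lack the genes, had 4.26%, 7.39%, 7.04% and 3.50%, or 27.1%, 30.02%, 25.9% and 14.3% unthinned. Median depths were 10516, 7737.5, 8424 and 5525 UMIs in macrophage-like cells and 17380, 13901, 12468 and 9164 in keratinocyte-like cells. In dendritic-like cells, of median depths 11639, 7935, 8492 and 6335, the thinned share was 99.6%, 100%, 99.0% and 100%. Macrophage-like cells thus included many cells with no class II UMI at a fixed depth in every library, and most at 28 dpa.

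B-like cells, the other class with constitutive class II expression, had no member past 2-fold. At 17 dpa it was 0 of 8, beside 6.06% of all genes higher and 5.36% lower, and at 28 dpa 0 of 8, beside 11.2% and 14.5%. The summed log2 ratios were 0.08 (0.03 to 0.13) and 0.25 (0.19 to 0.31), from 196, 142 and 99 cells in the unamputated, 17 and 28 dpa libraries. Cd74 was at 6871, 7152.5 and 8141 CPM and H2-Ab1 at 1443, 1961 and 2339 CPM in that order. H2-Aa was at 2525, 2269 and 2479 CPM. The 2 chains of I-A therefore went apart here too, with H2-Ab1 lowest and H2-Aa highest in unamputated tissue.

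The H2-DO genes were higher in B-like than in dendritic-like or macrophage-like cells. H2-Oa was at 83.2, 116 and 99.2 CPM in B-like cells, against at most 0.738 CPM in macrophage-like cells. H2-Ob, its β chain partner, was at 208, 191 and 158 CPM in B-like cells, 56.7, 65.2, 69.5 and 51.4 CPM in dendritic-like cells and 1.90 to 2.33 CPM in macrophage-like cells. Both chains of the H2-DM inhibitor thus had the same order of classes. H2-DMb1 was at 87.3, 69.8 and 72.1 CPM, H2-DMa at 130, 207 and 171 CPM and H2-Eb1 at 90.1, 87.9 and 162 CPM. Ciita in B-like cells was at 122, 152 and 63.1 CPM, from 88, 59 and 14 UMIs.

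Monocyte-like cells could be compared at 17 dpa only, with 175 and 70 cells. The 8 members summed were 2.69-fold higher there (log2 ratio 1.43, interval 1.35 to 1.499). The 5 cells with most member UMIs held 48.3% of them in unamputated tissue and 44.8% at 17 dpa, and without those cells the levels were 1184 and 3584 CPM. The 17 dpa level was thus the higher one with or without these cells, but each level rests on them in large part, which the counting interval does not cover. Over all cells of the class, 4 of the 7 members at or above the minimum were at least 2-fold higher, 0 lower, beside 5.7% and 7.61% of all genes. Cd74 was at 1177 and 3372.5 CPM, H2-Aa at 409 and 1151 CPM and H2-Ab1 at 397 and 993 CPM. H2-DMb1 went from 68.3 to 135 CPM and H2-DMa from 121 to 209 CPM. H2-Eb1, 1 of the 4 past 2-fold, was at 10.5 and 23.2 CPM (log2 ratio 1.08, interval -0.14 to 2.36) from 17 and 10 UMIs. Ciita was at 17.2 and 34.8 CPM. These 2 genes reached the minimum only in the 17 dpa library, where they were the higher, so their entry into the count is not independent of that difference. The median cell had 2.31 member UMIs per 10000 UMIs in unamputated tissue and 9.16 at 17 dpa, and the thinned share of cells with a member UMI was 47.7% and 70.1%.

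High values in T or NK-like cells rested on a few cells. At 12 and 28 dpa 3 of the 3 members at the minimum were at least 2-fold higher and 0 lower, beside 4.78% and 10.8% of all genes at 12 dpa and 5.83% and 21.4% at 28 dpa. Of the 3, H2-Aa and H2-Ab1 were at 15.5 and 12.6 CPM in unamputated tissue and so reached the minimum only through the libraries in which they were high. At 17 dpa it was 0 of 3, beside 3.99% and 9.41%. The 5 cells with most member UMIs held 87.5% of them at 12 dpa and 89.3% at 28 dpa, and without those 5 cells in each library the levels were 63.0, 61.4, 79.2 and 66.9 CPM. Keratinocyte-like cells at 12 dpa were alike in this, with 1 cell holding 574 of 1001 member UMIs, and their level went from 109 to 29.9 CPM without the top 5 cells. The high levels of these 2 classes thus disappear with a handful of barcodes.

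Osteoclast-like cells, which share an origin with macrophages, were at 812, 1403, 1582 and 2007 CPM, but only the first 2 values rest on at least 50 cells (98, 59, 38 and 16). Without the top 5 cells, which held 62.4% of member UMIs at 12 dpa, these 2 values were 577 and 572 CPM, so the higher 12 dpa level rests on those cells. A small unnamed cluster led by Ccl22, Ccr7 and Flt3, genes of migratory dendritic cells, was at 29546, 29125 and 21753 CPM with 19, 8 and 10 cells in the first 3 libraries. Its level lay between those of dendritic-like and B-like cells in the 2 libraries that held both.

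The ratio between the I-A chains differed between unamputated tissue and all 3 later libraries in dendritic-like and macrophage-like cells. Per 100 UMIs of H2-Ab1, H2-Aa had 95.6, 67.8, 78.7 and 78.4 UMIs in dendritic-like cells and 95.2, 64.0, 77.5 and 80.5 in macrophage-like cells. B-like cells had 175, 116 and 106 in the unamputated, 17 and 28 dpa libraries, so the unamputated value was the highest in each of these 3 classes. Monocyte-like cells had 103 in unamputated tissue and 116 at 17 dpa, with intervals that overlap. Per 100 UMIs of Cd74, dendritic-like cells had 50.2 UMIs of H2-Aa in unamputated tissue (49.5 to 51.0) and 38.7, 38.1 and 37.8 later. Macrophage-like cells had 47.4 (46.7 to 48.1) and then 32.7, 38.4 and 37.3. In B-like cells the values were 36.7 in unamputated tissue and 31.7 and 30.5 at 17 and 28 dpa. H2-Aa was thus lower against Cd74 after amputation in these 3 classes. In monocyte-like cells, of fewer UMIs, it was at 34.7 in unamputated tissue and 34.1 at 17 dpa. Osteoclast-like cells did not show it either, at 22.99, 22.99, 35.4 and 22.6, the last 2 from under 50 cells.

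Clusters within the macrophage-like class showed the same. In unamputated tissue clusters 1, 2, 4, 6 and 8 had between 46.3 and 49.9 H2-Aa UMIs per 100 of Cd74. At 12 dpa clusters 1, 2, 4 and 8 had 33.0, 38.0, 29.6 and 28.3. H2-Ab1 did not follow this order: per 100 UMIs of Cd74 it was at 52.6, 57.0, 48.5 and 48.3 in dendritic-like cells and at 49.8, 51.1, 49.6 and 46.4 in macrophage-like cells. A ratio of 2 genes in the same cells does not depend on cell number, but a library that differs from the others in sex or in animals cannot be told apart from its time point. The H2-Aa differences from unamputated tissue given above for dendritic-like, macrophage-like and B-like cells include this shift.

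**Figure D4:**
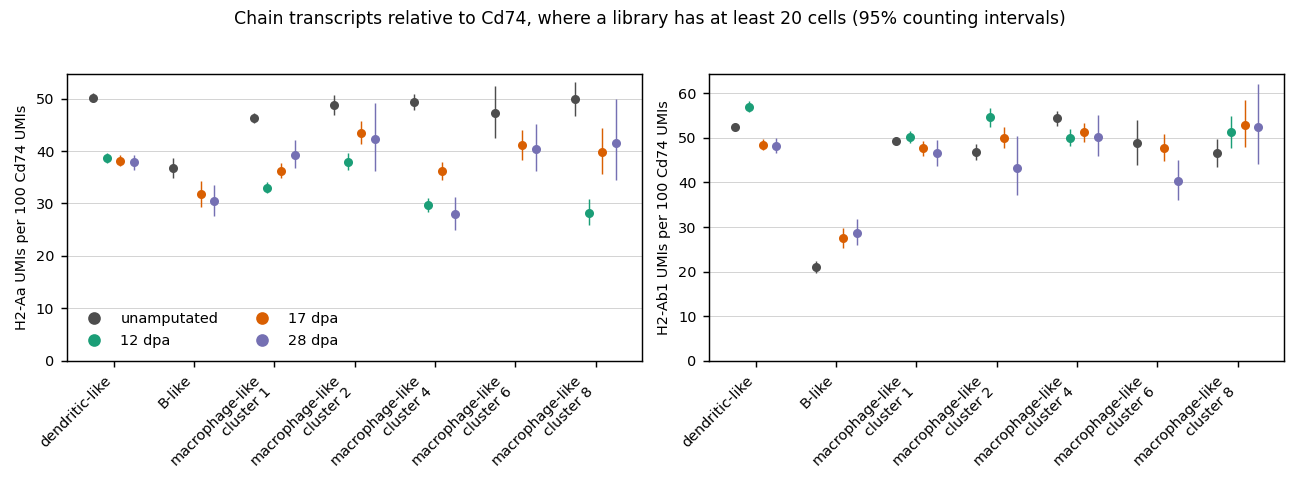
UMIs of H2-Aa (left) and H2-Ab1 (right) per 100 UMIs of Cd74 in dendritic-like cells, B-like cells and 5 macrophage-like clusters, 1 point per library of at least 20 cells with its 95% counting interval. The unamputated point is the highest of each group on the left, at 50.2 in dendritic-like and 36.7 in B-like cells, and on the right no library is the highest in all groups.

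Cd74 lies at chr18:60803848-60812652 and Ciita at chr16:10480059-10528418, both on the plus strand, away from the H2 complex. The near-identical copies H2-DMb1 and H2-DMb2 can share reads, so their split is uncertain. Per 100 UMIs of H2-DMb1, H2-DMb2 had 9.56, 7.54, 10.2 and 16.7 UMIs in macrophage-like cells, 16.3, 21.8, 16.2 and 13.03 in dendritic-like cells, and 203, 344 and 262.5 in B-like cells. The B-like values stood apart from those of both other classes in all 3 libraries that held such cells.

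Outside the immune classes H2-Aa, H2-Ab1 and Cd74 were near the level of a gauge of free RNA, and the other members given stood above it. Non-immune cells had 0.280%, 0.350%, 0.557% and 0.855% of the summed level of immune cells, beside 0.363%, 0.298%, 0.565% and 0.620% for Tyrobp, Fcer1g and Laptm5, 3 genes of immune cells taken as a gauge. For H2-Aa it was 0.182%, 0.242%, 0.486% and 0.651%, and for Cd74 0.186%, 0.270%, 0.426% and 0.595%, under the gauge except for H2-Aa at 28 dpa. H2-Ab1, at 0.269%, 0.365%, 0.548% and 0.759%, was slightly above it at 12 and 28 dpa. Other members were above it in all 4 libraries: H2-DMb1 was at 0.823%, 0.585%, 1.38% and 1.80%, Ciita at 0.978%, 1.20%, 1.75% and 3.25%, and H2-Oa at 3.13%, 4.69%, 2.21% and 6.06%, the last from 27, 21, 8 and 8 UMIs. At most 31.0 CPM was reached in vascular endothelial-like cells and at most 29.5 CPM in fibroblast-like cells, for the 8 genes together.

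H2-DMa and H2-Eb1 did not keep the ratio that free RNA from immune cells would give. H2-DMa in non-immune cells was at 3.02%, 2.43%, 2.84% and 5.66% of its immune level, several times the gauge. It overlaps Brd2, a chromatin reader expressed in most cells, by 3094 bases on the opposite strand, and Brd2 was at 71.3 to 169 CPM in keratinocyte-like, fibroblast-like and mural-like cells. H2-Eb1 was at 85.7, 71.7, 40.2 and 42.9 UMIs per 100 of Cd74 in mural-like cells and at 62.5, 36.8, 11.9 and 180 in neutrophil-like cells. In dendritic-like cells the same ratio was 0.836, 0.9305, 0.739 and 1.13. In CPM, H2-Eb1 was at 4.60, 5.48, 4.23 and 3.59 in mural-like cells and at 12.2, 34.7, 8.93 and 66.9 in neutrophil-like cells. Per Cd74 UMI, H2-Eb1 was thus many times more frequent in these 2 classes than in dendritic-like cells.

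An antisense gene, Gm20513, overlaps H2-Eb1 by 2204 bases and was counted separately, at 60.8, 56.4, 57.0 and 60.9 CPM in dendritic-like cells, 6.09, 14.9, 2.23 and 7.43 CPM in neutrophil-like cells and at most 0.531 CPM in mural-like cells. How counting used the strand is not given in the sources used here, so reads of H2-DMa and H2-Eb1 cannot be told apart from those of their opposite-strand neighbours with certainty. The same holds for Ciita, which overlaps Dexi, and for H2-Oa, which overlaps BC051537. Dexi was at 33.4, 22.4, 51.3 and 9.52 CPM in dendritic-like cells, so it too was lowest at 28 dpa where Ciita was lowest, and the 28 dpa value rests on 5 UMIs. In macrophage-like cells it was at 10.6, 7.18, 10.97 and 11.7 CPM, highest at 28 dpa, where Ciita was lowest. BC051537 gave at most 6 UMIs in dendritic-like cells of any library.

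**Figure D5:**
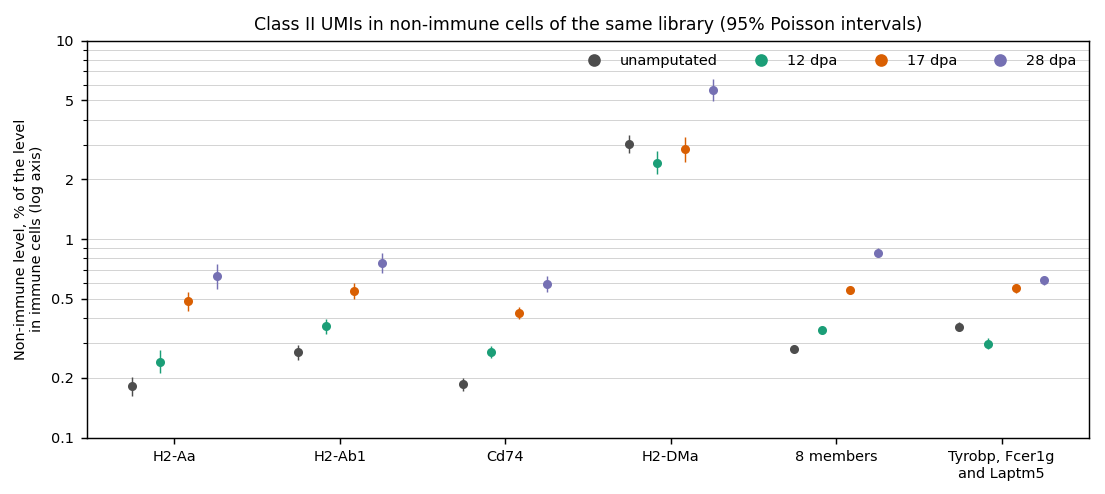
Level in non-immune cells as a percentage of the level in immune cells of the same library (log axis) for H2-Aa, H2-Ab1, Cd74, H2-DMa and the 8 members summed, with Tyrobp, Fcer1g and Laptm5 summed as the gauge of free RNA, 1 point per library with its 95% Poisson interval. H2-DMa lies at 2.43% to 5.66%, above the gauge of 0.298% to 0.620%, and Cd74 lies at 0.186% to 0.595%.

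In macrophage-like cells no counted gene of the wider class II pathway was past 2-fold, where few of all genes were. Of 27 listed partners 23 were in the files, and in macrophage-like cells 16, 16 and 17 reached the minimum at 12, 17 and 28 dpa, of which 0 were at least 2-fold higher or lower. Of all genes 0.534%, 1.68% and 3.75% were higher and 1.1%, 1.04% and 3.22% lower at these times, so a count of 0 is near the background and says little about the list. Medians were -0.10, 0.0013 and -0.13, against -0.27, -0.02 and -0.07 for all genes. Closest to 2-fold was Ctsl, the endosomal protease cathepsin L, at 1016, 1011, 584 and 535 CPM, with log2 ratios of -0.80 and -0.92 at 17 and 28 dpa. Cathepsin S, the protease that trims the invariant chain (Ctss), was at 2333, 2549, 1927 and 1579.5 CPM in macrophage-like cells, and the thiol reductase Ifi30, which unfolds proteins in endosomes, at 579, 679, 522 and 420 CPM. Both genes thus had the order of libraries seen for Cd74, within 2-fold. Of the promoter factors, Rfx5 was at 4.71, 2.54, 5.08 and 6.18 CPM and Nfya at 32.0, 26.8, 35.3 and 37.1 CPM in macrophage-like cells, both lowest at 12 dpa. Rfxap, a further RFX subunit, was at 25.6, 27.4, 26.2 and 21.4 CPM, lowest at 28 dpa. Cd83, which protects surface class II from degradation, was at 381, 229, 498 and 605 CPM, highest at 28 dpa.

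Genes that act before or beside class II were counted in the same way, against the same shares of all genes. Of the interferon-γ list 7 genes were counted in macrophage-like cells at each time, and 0 passed 2-fold; medians were -0.33, -0.30 and -0.65, against -0.27, -0.02 and -0.07 for all genes. Ifngr1, a chain of the interferon-γ receptor, was at 275, 221, 224 and 180 CPM, lowest at 28 dpa. Ifng itself, in T or NK-like cells, was at 66.0, 10.7, 393 and 134 CPM, lowest at 12 dpa and highest at 17 dpa. Of the class I list 8 genes were counted and 0 passed at any time, with H2-K1 at 723, 797, 853 and 683 CPM and B2m at 1358, 1484, 1737 and 1441 CPM. Of 4 co-stimulation genes counted only Cd274, the ligand of PD-1, passed, at 28 dpa, from 27.9 to 13.3 CPM. It reached the minimum only through the unamputated library, where it was high. Of 4 genes for the CD74 ligands and receptors counted 0 passed. With so few genes in each list, counts of 0 or 1 are near the share over all genes.

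In dendritic-like cells 1 of 18, 1 of 19 and 1 of 18 counted pathway genes were at least 2-fold lower at 12, 17 and 28 dpa and 0 were higher, near the 8.21%, 3.51% and 10.8% of all genes that were lower. Nfyb, a subunit of the Y box factor, was lower at 12 dpa, from 33.4 to 13.6 CPM. It reached the minimum only through the unamputated library, where it was high. At 17 dpa the lower gene was Ctsd, an endosomal protease, from 50.4 to 23.9 CPM. Cxcr4, a receptor for MIF and 1 of 4 genes counted for CD74 ligands and receptors, went from 121 to 59.3 CPM at that time. Among the lower genes at 28 dpa were March1, a ligase that removes class II from the surface, from 249 to 110 CPM, and, of 9 class I genes counted, H2-T23, from 69.7 to 26.6 CPM, and Tap2, from 54.5 to 20.9 CPM. The 28 dpa values come from 76 cells.

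Members and a few other genes had alike patterns over the classes. The reference was the mean log level of H2-Aa, H2-Ab1, H2-Eb1 and Cd74 over 48 sums of class and library. Pearson's r of each member's log level with this mean was 0.992 for H2-Aa, 0.992 for H2-Ab1 and 0.995 for Cd74. It was 0.964 for H2-DMb1, 0.952 for H2-DMa, 0.928 for Ciita, 0.924 for H2-Eb1 and 0.762 for H2-Oa. The genes that make up the mean are correlated in part with themselves, so their values are not comparable with those of other genes. Outside the list, the most alike over the same 48 sums were Cd83 (0.942), Fgd2 (0.938), Napsa (0.935) and Cd86 (0.9299). Over the 23 sums of immune classes alone they were Pkib (0.959), Cd40 (0.919), Flt3 (0.906) and H2-DMb2 (0.875). These sums share libraries, depth and free RNA, so the values are descriptions only. Of these genes Napsa and Flt3 were among the markers that named dendritic-like cells, Cd83 and H2-DMb2 were in the pathway list, and Cd86 and Cd40 were in the co-stimulation list.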

How the data were processed

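The deposited values were whole-number UMI counts per gene and cell barcode, made by the authors with Cell Ranger 7.1.0 on mm10, per the submitters' processing notes; the annotation, the strand setting and the cell-calling settings are not given in the sources used here. FVB/NJ reads were aligned to a C57BL/6J reference, and reads of the polymorphic H2 genes can be lost by this, which was not tested, so levels are compared within a gene, between classes and libraries. The files listed 32285 genes, and 0 columns were left unmapped. Positions are from GENCODE M21 (GRCm38) and promoters from RefSeq.

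A barcode was kept with 500 genes or more, 1000 UMIs or more and no more than 10% mitochondrial UMIs. Scrublet then ranked barcodes within a library, and the top-ranked were dropped as doublets at 0.8% per 1000 barcodes (12.8%, 7.05%, 8.41% and 12.2%; the automatic threshold marked 1.78%, 1.88%, 2.30% and 4.19%). The 34945 cells were clustered jointly with scanpy 1.11.5 and leidenalg 0.10.2 (2000 variable genes, 30 components, 15 neighbours, resolution 1), without the members, their lists, other class II genes, mitochondrial genes, 4 Y-linked genes, Xist and Tsix, and the 10372 cells of Ptprc-positive clusters (UMIs in at least 50% of cells) were clustered again. Clusters were named from markers of 22 classes, of which at least 3 had to be detected in 25% of cells. A cluster stayed unnamed where markers of some other class outnumbered its own among the 10 leading genes. The naming rule was set with the clusters in view, and 2 ways of computing the fold of leading genes were looked at.

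UMIs were summed per library and class and given as CPM of the class's UMIs, with exact Poisson intervals. Log2 ratios used a pseudocount of 1 CPM and a conditional binomial interval, and were given for classes with at least 50 cells in both libraries. A gene was counted where it reached 20 CPM in either library and called at 2-fold. Shares have Clopper-Pearson intervals, after thinning to 2000 UMIs. Scripts used Python 3.11.15 and scipy 1.17.1 and were tested on simulated data. Named genes were the 8 members, every list gene past 2-fold in macrophage-like or dendritic-like cells, except 1 that is not reported here, and the genes most like the members. Other list genes were named after their values were seen, to show levels. The members and lists were chosen with earlier results of these data known. The labels do not say how many animals each pool held.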

Additional observations from a re-analysis of the deposited data

Results flagged for a closer look

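Macrophage-like clusters went opposite ways from unamputated tissue for the 8 members summed, and the differences between clusters were not tested, since each group had 1 library. At 12 dpa cluster 4 had a log2 ratio of -0.32 and cluster 2 one of 0.96. At 17 dpa cluster 4 was at -0.77 and cluster 8 at 0.31. By 28 dpa cluster 4 was at -2.19 and cluster 1 at 0.61, from 201 and 66 cells. Cluster 4 was the lowest of the clusters compared at all 3 times, and a different cluster was the highest each time.

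Classes also went opposite ways, and these differences were not tested either. At 17 dpa macrophage-like cells had a log2 ratio of -0.45 and monocyte-like cells one of 1.43. At 28 dpa macrophage-like cells were at -1.07 and B-like cells at 0.25.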

How the results depend on the processing

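No paired analysis was possible because each group held 1 library, and no replicate could be left out. For the macrophage-like log2 ratios at 12, 17 and 28 dpa (0.22, -0.45 and -1.07) a looser cell filter gave 0.26, -0.19 and -1.41, a stricter one 0.25, -0.74 and -2.64, no doublet removal 0.29, -0.59 and -1.76, resolution 2 gave 0.29, -0.25 and -1.61, and naming each cell alone 0.13, -0.47 and -2.49. Class II genes kept in the clustering gave 0.32 and -1.18 at 12 and 28 dpa, a denominator without ribosomal protein, mitochondrial and class II genes 0.28 at 12 dpa, and means of single-cell CPM 0.29, -0.33 and -1.02. Added after seeing the data, pooling with the unnamed clusters gave 0.24, -0.59 and -2.41, leaving out cluster 4 gave 0.33, -0.40 and -0.80, and 1 common mix of clusters gave 0.29, -0.17 and 0.16, the last of which reverses the 28 dpa direction. The cause of these shifts was not tested.

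The dendritic-like ratios (0.06, 0.04 and -0.02) were -0.034 at 17 dpa with the looser filter, 0.087 and -0.43 at 12 and 28 dpa without doublet removal, 0.092 and 0.057 at 12 and 17 dpa at resolution 2, -0.026 and -0.24 at 17 and 28 dpa with each cell named alone, 0.15, 0.091 and 0.028 with the other denominator, and -0.0017 and 0.0031 at 12 and 17 dpa with single-cell means. The stricter filter left 25, 25, 21 and 14 dendritic-like cells and class II genes in the clustering left none named, so neither gave a value. A pseudocount of 10 CPM changed none of these 6 ratios beyond their counting intervals.

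The immune share of member UMIs (99.1%, 98.4%, 98.2% and 97.0%) was 94.0%, 92.6%, 94.6% and 92.7% without doublet removal, 97.7%, 97.2%, 97.3% and 95.9% with each cell named alone, 99.5%, 98.7%, 98.4% and 98.0% with the stricter filter, 99.4%, 99.1%, 98.7% and 97.8% as mean CPM per cell, and 99.0%, 98.2% and 96.8% in the unamputated, 12 and 28 dpa libraries with the looser filter. Without thinning, cells with a member UMI were 84.4%, 85.1%, 78.6% and 56.3% of macrophage-like cells and 100% of dendritic-like cells in the unamputated and 17 dpa libraries.

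Depth limits Ciita and H2-Oa, with under 50 UMIs behind each at 28 dpa in dendritic-like, macrophage-like and B-like cells. In B-like cells the same holds for H2-DMb1, H2-DMa and H2-Eb1. Sex and time cannot be told apart at 12 dpa, nor animals and time in any library.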
